A study of Homo sapiens with 18 samples.

Results

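The matrix metalloproteinases (MMPs) and the tissue inhibitors of metalloproteinases (TIMPs) were followed through stable knockdown of SYK in 3 lung cancer cell lines. The members were taken by gene name, as families of protease and inhibitor, with earlier results of these data known. They were 7 proteases (MMP1, MMP2, MMP7, MMP9, MMP10, MMP13 and MMP14) and 3 inhibitors (TIMP1, TIMP2 and TIMP3), so 10 of the 58302 genes in the tables. RNA was sequenced from EBC-1 cells, which carry a MET amplification, and from PC-9 and HCC827 cells, which both carry an EGFR exon 19 deletion. In each line, cells with an shRNA against SYK delivered by lentivirus (shSYK) were compared with their negative control cells (nc). Each of the 6 groups had 3 libraries, which gives 18 in all. A single shRNA clone was used in all 3 lines, so effects of that clone that do not pass through SYK cannot be told apart from those of the knockdown. The labels do not say whether the 3 libraries of a group came from separate cultures, so the p-values measure the spread between these libraries, which may be technical.

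MMPs are zinc-dependent endopeptidases that cleave collagens, other matrix proteins and many cell-surface proteins. Most are secreted as inactive proenzymes and are controlled at transcription, at activation of the proenzyme and by TIMPs, which bind the active site. In carcinomas much of the MMP protein comes from stromal cells, whereas MMP7 is made by epithelial cells and MMP14 is held in the cell membrane, where it activates proMMP2 with the help of TIMP2. Transcript levels, which were measured here, carry no information on proenzyme activation.

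SYK itself, a cytoplasmic tyrosine kinase, served as the check of the labels. It fell in every line by limma on log2(FPKM + 1), where FPKM is fragments per kilobase of gene, scaled to the size of the library. Its level was 14.2 ± 1.07 FPKM (SD, n = 3) in nc and 7.43 ± 0.189 in shSYK of EBC-1 (log2 fold change -0.85, SE 0.074, Benjamini-Hochberg adjusted p = 0.000271). The PC-9 level fell from 6.51 ± 0.698 to 2.09 ± 0.389 (-1.29, SE 0.13, adjusted p = 0.00733), a call that was lost without shSYK replicate 1 (adjusted p = 0.0648). HCC827 cells went from 9.08 ± 0.649 to 2.99 ± 0.472 (-1.34, SE 0.10, adjusted p = 0.000197). The libraries held 7920099 to 15729103 reads on genes. The sum of FPKM ranged from 247177 to 354356, and setting all sums equal moved the median log2 fold change of all genes in EBC-1 from 0.00904 to 0.116. Over all genes, 2876 were called higher and 2686 lower in EBC-1 shSYK (4019 and 1901 with equal sums), and 2066 higher and 2488 lower in HCC827 shSYK (2482 and 1905 with equal sums). Epithelial marker genes were detected in every group, 6 of 6, with a summed level between 1413 and 5834 FPKM. Of 8 fibroblast markers, 1 reached a mean of 1 FPKM in any line (COL1A1), 4 to 6 were at 0 in all 3 libraries of each group, and the summed level stayed between 0.958 and 8.37 FPKM.

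The promoters of MMP7, MMP10, MMP14 and TIMP3 are shown because MMP7 and MMP10 lie in the same gene cluster yet differed widely in level, and because MMP14 and TIMP3 reached the highest protease and inhibitor levels among the members and were nearly or fully silent in HCC827. Each line holds the 250 bases before the RefSeq start site (GRCh38.p14), 5′ to 3′ on the strand of the gene. Capitals mark words that are bound by known families of factors. They are the AP-1 word TGAGTCA in MMP7, the ETS word AGGAAG, which in MMP7 lies on the other strand and so reads CTTCCT, the TATA box TATAAA of MMP7 and MMP10 (gene strand only), and the GC box GGGCGG of MMP14 and TIMP3, which reads CCGCCC where it lies on the other strand.
MMP7, chr11:102530748-102530997, minus strand: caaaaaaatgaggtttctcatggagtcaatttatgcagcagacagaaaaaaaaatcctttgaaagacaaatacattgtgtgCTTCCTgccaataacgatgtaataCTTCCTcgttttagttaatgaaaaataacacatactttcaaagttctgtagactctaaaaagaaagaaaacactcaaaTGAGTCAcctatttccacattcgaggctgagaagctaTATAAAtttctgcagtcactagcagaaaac
MMP10, chr11:102780629-102780878, minus strand: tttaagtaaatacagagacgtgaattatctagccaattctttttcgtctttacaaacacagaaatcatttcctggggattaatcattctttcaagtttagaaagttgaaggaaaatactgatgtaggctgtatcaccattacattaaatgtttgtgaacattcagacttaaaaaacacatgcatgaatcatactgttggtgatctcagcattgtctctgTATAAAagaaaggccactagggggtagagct
MMP14, chr14:22836335-22836584, plus strand: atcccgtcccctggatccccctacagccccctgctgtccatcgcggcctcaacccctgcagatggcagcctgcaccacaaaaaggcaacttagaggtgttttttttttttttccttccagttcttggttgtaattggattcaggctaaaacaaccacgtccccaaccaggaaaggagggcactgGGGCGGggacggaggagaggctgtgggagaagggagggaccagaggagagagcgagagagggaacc
TIMP3, chr22:32801455-32801704, plus strand: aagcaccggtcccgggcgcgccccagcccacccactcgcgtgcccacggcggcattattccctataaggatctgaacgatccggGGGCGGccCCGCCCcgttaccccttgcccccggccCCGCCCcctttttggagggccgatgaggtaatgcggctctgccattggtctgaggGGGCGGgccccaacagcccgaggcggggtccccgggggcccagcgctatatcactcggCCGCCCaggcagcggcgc

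The reference table held a promoter for 5 of the 10 members, the fifth being TIMP1. Words were searched in 300 bases, from 250 before to 50 after the start site, on both strands except for TATAAA. MMP7 held the AP-1 word TGAGTCA 67 bases before its start site, and it was the only 1 of the 5 members to hold it. This word, or TGACTCA on the other strand, was present in 4.95% of 35116 promoters. MMP7 also held AGGAAG at 169 and 145 bases before the start (33.6% of promoters had the word) and TATAAA at 30 bases (7.33%). MMP10 had TATAAA at 31 bases and none of the other words. TIMP1 also held AGGAAG, at 87 bases before its start site. MMP14 had 1 GC box, TIMP1 had 2 and TIMP3 had 5, a word found in 45.0% of promoters. The other ETS word, CCGGAA, was found in MMP14 at 41 bases after the start, and 17.2% of promoters held it. The G and C content of the 250 bases was 33.6% in MMP7, 34.4% in MMP10, 56.8% in MMP14, 64.8% in TIMP1 and 72.4% in TIMP3, against a median of 58% over all promoters. TIMP3 held 26 CpG dinucleotides there and MMP7 held 3, against a median of 11. No marked words overlap one another, and a match of letters does not show that a factor binds.

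The 3 control lines had different protease and inhibitor profiles. In EBC-1 nc the highest level per gene length was that of MMP14, between 68.1 and 85.0 FPKM. TIMP2 (22.5 to 25.5) and TIMP1 (21.6 to 24.3) followed and overlapped each other, then came MMP9 (4.30 to 5.55), MMP7 (2.97 to 3.54) and TIMP3 (2.24 to 2.93), none of which overlapped its neighbour. In PC-9 nc, TIMP3 led with 133 to 170 FPKM, TIMP1 (15.8 to 33.4) and TIMP2 (19.5 to 24.8) overlapped, and MMP14 reached 6.63 to 9.42. In HCC827 nc, TIMP1 led with 44.7 to 62.0 FPKM, ahead of TIMP2 (18.5 to 19.4) and MMP7 (4.21 to 5.72). The remaining members had medians under 1 FPKM in these control groups. TIMP3 was listed at 0 in all 6 HCC827 libraries, and a count of 0 allows up to 3 reads in a library, while PC-9 gave 5882 to 7451 reads per library on the same gene. MMP14, the leading protease of EBC-1 with 3839 to 8489 reads, had 3 to 15 reads in HCC827. TIMP1 and TIMP2 were the members above 1 FPKM in all 18 libraries. Each line has its own table, so levels set across lines were not tested.

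**Figure D1:**
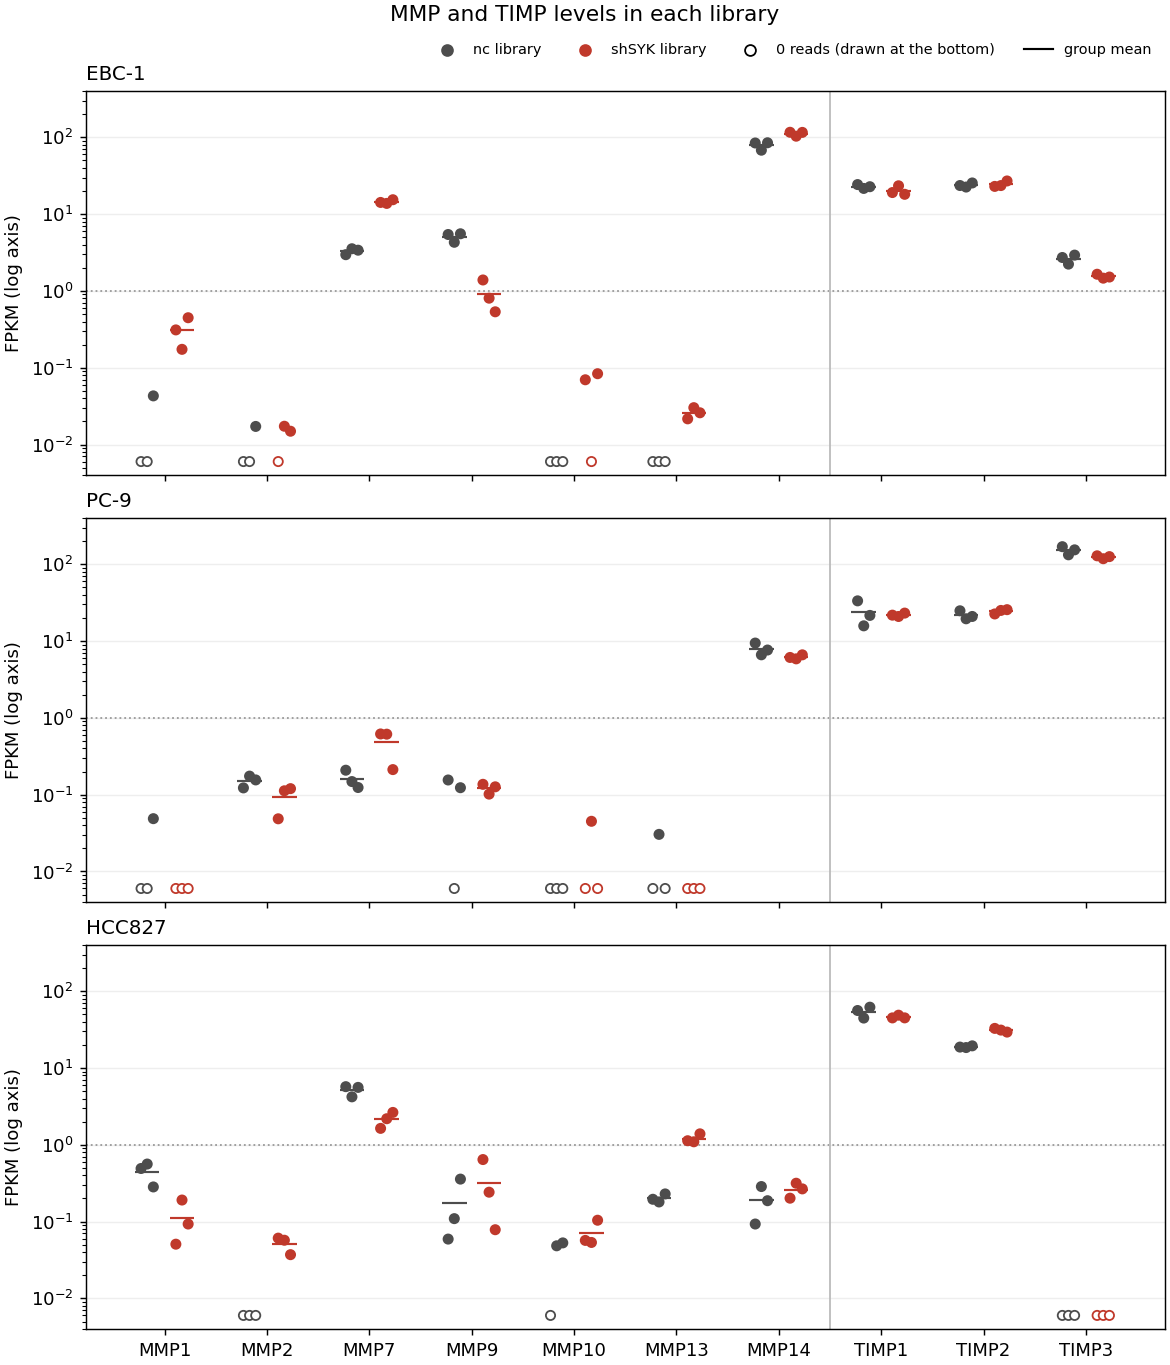
FPKM (log axis) of the 10 members in each of the 18 libraries, 1 panel per cell line, nc in grey and shSYK in red, with bars at group means where all 3 values are above 0, open points for 0 reads and a dotted line at 1 FPKM. TIMP3 spans from 0 in HCC827 to 118 to 170 FPKM in PC-9, and MMP7 is higher in shSYK than in nc of EBC-1 and lower in shSYK than in nc of HCC827.

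A level of 3 reads per library was taken as the floor, and a member counted as detected in a group if its median was above it. By this measure 6 members were detected in EBC-1 nc and 7 in EBC-1 shSYK, while both groups of PC-9 and both of HCC827 had 6. A mean of at least 1 FPKM over the 6 libraries, required for the test, was reached by 6 members for EBC-1, 4 for PC-9 and 3 for HCC827. In EBC-1, 4 of the 6 passed the test (2 rose, 2 fell), where 44.7% of all 12430 tested genes did (23.1% higher, 21.6% lower). In PC-9, limma called 0 of 4, and 0 had an unadjusted p under 0.05, where 2.09% of 12089 genes were called (0.678% higher, 1.41% lower). That background of 253 genes was unsteady, with 7, 16 and 20 called without shSYK replicate 1, 2 or 3 and 621, 503 and 24 without nc replicate 1, 2 or 3, and nc replicates 1 and 2 of PC-9 stood furthest apart of all replicate pairs (chi-square per degree of freedom 38.66). With limma-voom on reads recovered from the FPKM, 0 of the 4 PC-9 members were called and 2 had an unadjusted p under 0.05. Over all 12089 genes, 480 were then called and 2144 had such an unadjusted p. In HCC827, 2 of 3 were called (1 rose, 1 fell), where 38% of 11999 genes were (17.2% higher, 20.7% lower). These are few genes in lines where a large share of all genes changed, and the counts are given as a description.

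MMP7 (matrilysin, a small secreted protease that lacks the hemopexin domain of most other family members) moved in opposite directions in EBC-1 and HCC827. In EBC-1 the nc libraries had 2.97, 3.54 and 3.39 FPKM (95, 104 and 93 reads) and the shSYK libraries 14.2, 13.8 and 15.4 (539, 375 and 487 reads). The groups were far apart, and the mean rose 4.38 times, from 3.30 ± 0.300 to 14.5 ± 0.839 (log2 fold change 1.85, SE 0.081, adjusted p = 2.43e-05). In HCC827 the nc libraries had 5.72, 4.21 and 5.59 FPKM (96, 115 and 140 reads) and the shSYK libraries 1.64, 2.19 and 2.64 (38, 54 and 67 reads). No shSYK library reached the lowest nc library, and the mean fell to 41.6% of nc (-0.97, SE 0.14, adjusted p = 0.00237). PC-9 had 4, 4 and 3 reads in nc and 18, 18 and 5 in shSYK. Replicate 3 of PC-9 shSYK lay close to nc, and the gene was under the filter. Without a filter its adjusted p in PC-9 was 0.457, and with limma-voom on reads without a filter it was 0.379.

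MMP14 (the membrane-type protease MT1-MMP) and its partners MMP2 and TIMP2 were at most called singly within a line, MMP14 in EBC-1 and TIMP2 in HCC827, with MMP2 under the filter throughout. MMP14 in EBC-1 was 84.5, 68.1 and 85.0 FPKM in nc and 116, 104 and 116 in shSYK, with no overlap, and rose 1.41 times (0.50, SE 0.10, adjusted p = 0.00661). In PC-9 the values were 9.42, 6.63 and 7.65 in nc and 6.12, 5.87 and 6.62 in shSYK (-0.29, SE 0.13, 95% interval -0.60 to 0.0090, adjusted p = 0.335). The highest PC-9 shSYK library and the lowest nc library nearly touched. In HCC827, MMP14 had 3, 15 and 9 reads in nc and 9, 15 and 13 in shSYK, which overlap. MMP2 (gelatinase A, the proenzyme that MMP14 activates) had at most 10 reads in any library. It gave 5, 10 and 8 reads in PC-9 nc and 3, 7 and 6 in PC-9 shSYK, at most 1 read in the EBC-1 libraries, and 0, 0 and 0 in HCC827 nc against 3, 3 and 2 in shSYK. All HCC827 values are at or under the floor, so no fold is given, although limma-voom without a filter gave an adjusted p of 0.00521 there and limma without a filter 0.162.

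MMP9 (gelatinase B, which degrades type IV collagen of basement membranes) fell in EBC-1. The nc libraries had 5.43, 4.30 and 5.55 FPKM (175, 127 and 153 reads) and the shSYK libraries 1.39, 0.805 and 0.535 (53, 22 and 17 reads). All 3 shSYK libraries were below all nc libraries, and the mean fell to 17.9% of nc (-1.69, SE 0.17, adjusted p = 0.000454). The shSYK mean, 0.910 ± 0.437 FPKM, was under 1, so the gene passed the filter through its nc level. The antisense gene SLC12A5-AS1 overlaps MMP9 on the opposite strand and had 16 to 26 reads in EBC-1 nc and 5 to 11 in shSYK, and without stated strand information its reads and those of MMP9 cannot be told apart. MMP9 had 3, 0 and 3 reads in PC-9 nc and 4, 3 and 3 in shSYK. HCC827 had 1, 3 and 9 reads in nc and 15, 6 and 2 in shSYK. Neither line showed a difference detectable at this depth (adjusted p = 0.845 and 0.628 without a filter).

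MMP7, MMP10, MMP1 and MMP13 belong to a cluster of 9 MMP genes that spans 435 kb of chromosome 11, in the order MMP7, MMP20, MMP27, MMP8, MMP10, MMP1, MMP3, MMP12 and MMP13 (hg38). Neighbours in the cluster were not expressed alike. MMP27, MMP8 and MMP12 had 0 reads in all 18 libraries, MMP3 at most 1, MMP10 at most 2 and MMP20 at most 5, whereas MMP7 reached 539, MMP13 43 and MMP1 13. MMP1 and MMP13, both collagenases that cut fibrillar collagen, were under the filter in every line, and their tests without a filter are to be read against the share of all genes so called, which was 14.7% for EBC-1, 0.165% for PC-9 and 12.7% for HCC827. With limma-voom on reads and no filter, which was chosen after the data had been seen, these shares were 22.2%, 1.34% and 19.4%.

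MMP1 (interstitial collagenase) had 0, 0 and 1 reads in EBC-1 nc and 10, 4 and 12 in shSYK. Every shSYK library lay above the floor and every nc library below it (adjusted p = 0.0360 without a filter, 9.53e-05 with limma-voom). The observed shSYK mean of MMP1 was 2.59 times the level of 3 reads per nc library. This value allows for low counts in nc only, and 1 shSYK library had 4 reads. In HCC827 MMP1 had 7, 13 and 6 reads in nc and 1, 4 and 2 in shSYK. The groups did not overlap, but 2 of the 3 shSYK libraries were under the floor, so no fold is given, and the calls differed (adjusted p = 0.0580 without a filter and 0.0473 with limma-voom). PC-9 had 1 read in all over its 6 libraries. Between EBC-1 and HCC827 the effects on MMP1 differed by 0.74 on the log2(FPKM + 1) scale without a filter (SE 0.11, adjusted p = 0.000562), higher in EBC-1, where 8.05% of all genes differed.

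MMP13 (collagenase 3, with a preference for type II collagen) was seen above the floor in HCC827 and in no library of the other lines. The HCC827 nc libraries had 4, 6 and 7 reads (0.195, 0.180 and 0.229 FPKM) and the shSYK libraries 32, 33 and 43 (1.13, 1.09 and 1.39 FPKM). All shSYK libraries were several times above all nc libraries, and the mean was 5.98 times higher (adjusted p = 0.00447 without a filter, 1.3e-05 with limma-voom). Each EBC-1 shSYK library had 1 read and each nc library had 0, which is under the floor. Without a filter the HCC827 effect was larger than that of EBC-1 by 0.84 (adjusted p = 1.67e-06) and than that of PC-9 by 0.89 on the log2(FPKM + 1) scale (adjusted p = 2.54e-06), where 3.05% of all genes differed between PC-9 and HCC827. With limma-voom and no filter, PC-9 minus HCC827 was called (-3.26, adjusted p = 0.000687). EBC-1 minus HCC827 was not (-0.98, adjusted p = 0.344), so that call depended on the scale. MMP13 was under the floor in every EBC-1 and PC-9 library. The differences without a filter are therefore close to the HCC827 effect alone (0.87), and what they add to it cannot be told at this depth. MMP10 (stromelysin 2) had 0 to 2 reads in every library, so no change in it was detectable at this depth.

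**Figure D2:**
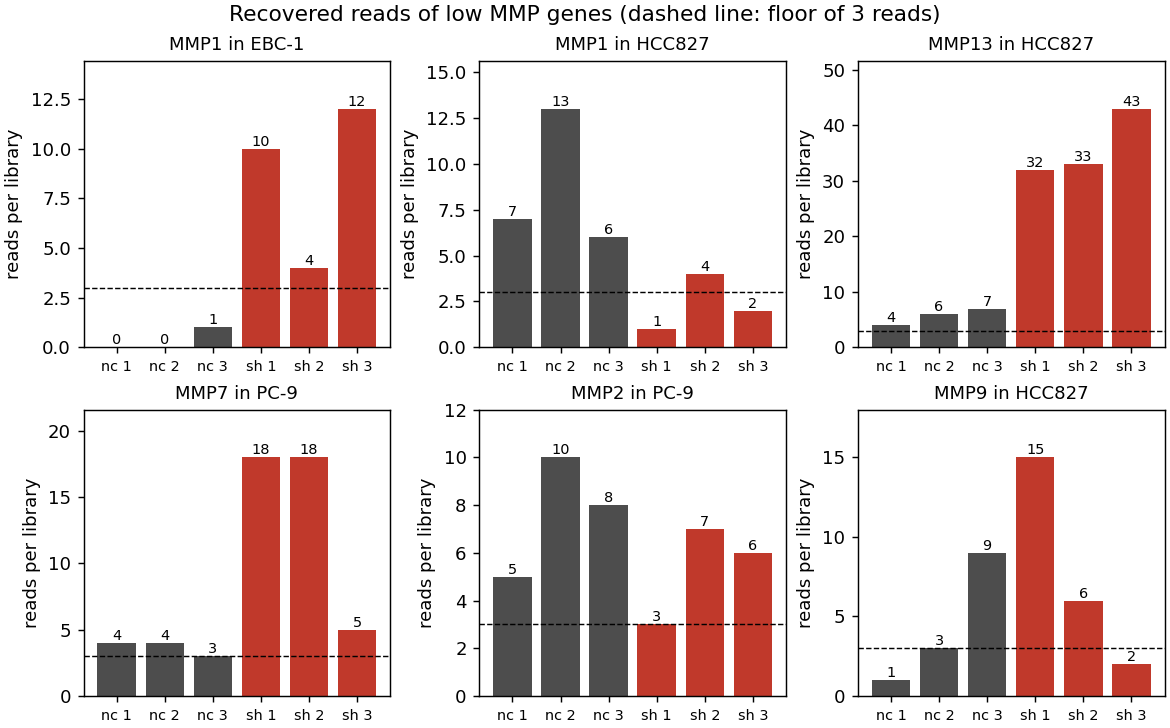
Reads recovered per library (bars, linear axis from 0) for MMP genes of low level, nc in grey and shSYK in red, with the floor of 3 reads dashed. MMP13 in HCC827 rises from 4 to 7 reads in nc to 32 to 43 in shSYK, MMP1 is higher in shSYK of EBC-1 and lower in shSYK of HCC827, MMP7 in PC-9 has 2 high shSYK libraries of 3, MMP2 in PC-9 stays at 10 reads or fewer, and MMP9 in HCC827 overlaps between groups.

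Of the inhibitors, TIMP2 rose in HCC827, TIMP3 fell in EBC-1 and TIMP1 passed the test in no line. TIMP2, which both inhibits MMPs and forms the receptor complex for proMMP2 with MMP14, had 18.7, 18.5 and 19.4 FPKM in HCC827 nc and 32.8, 31.2 and 29.4 in shSYK. The replicates of each group were tight and the mean rose 1.65 times (0.69, SE 0.058, adjusted p = 0.000278). In EBC-1, TIMP2 was 23.6, 22.5 and 25.5 in nc and 22.98, 23.6 and 27.1 in shSYK, which overlap (0.036, 95% interval -0.16 to 0.23, adjusted p = 0.748). PC-9 had 24.8, 19.5 and 20.9 in nc and 22.6, 25.1 and 25.7 in shSYK (0.17, 95% interval -0.12 to 0.45, adjusted p = 0.583).

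TIMP3 (the inhibitor that binds to the matrix and also inhibits ADAM proteases) had 2.73, 2.24 and 2.93 FPKM in EBC-1 nc and 1.65, 1.47 and 1.52 in shSYK. The groups did not overlap and the mean fell to 58.7% of nc (-0.51, SE 0.10, adjusted p = 0.00656). PC-9, the line with the most TIMP3, had 170, 133 and 154 in nc and 129, 118 and 126 in shSYK. These groups did not overlap either, but the value did not pass the test (-0.28, SE 0.13, 95% interval -0.58 to 0.0083, adjusted p = 0.335). It was called with 1 fit of all 18 libraries (adjusted p = 0.0458) and after quantile normalization (0.0433). TIMP3 lies inside SYN3, on the opposite strand, and SYN3 had at most 7 reads in any library.

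TIMP1 (a secreted inhibitor that also binds proMMP9) was 24.3, 21.6 and 22.8 FPKM in EBC-1 nc and 19.1, 23.4 and 18.1 in shSYK (-0.18, 95% interval -0.42 to 0.060, adjusted p = 0.191). In PC-9 the nc libraries were spread from 15.8 to 33.4, with replicate 1 the highest, and the shSYK libraries had 21.8, 20.9 and 23.1 (-0.039, 95% interval -0.60 to 0.52, adjusted p = 0.967). Without nc replicate 1 the sign turned, to 0.234. In HCC827 the values were 56.1, 44.7 and 62.0 in nc and 44.9, 48.8 and 45.0 in shSYK (-0.22, 95% interval -0.48 to 0.047, adjusted p = 0.17). The groups overlapped in all 3 lines. It passed the threshold, still lower in shSYK, without EBC-1 shSYK replicate 2 (adjusted p = 0.0445) and without HCC827 nc replicate 2 (0.0138). TIMP1 lies inside SYN1, on the opposite strand, which had at most 2 reads.

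**Figure D3:**
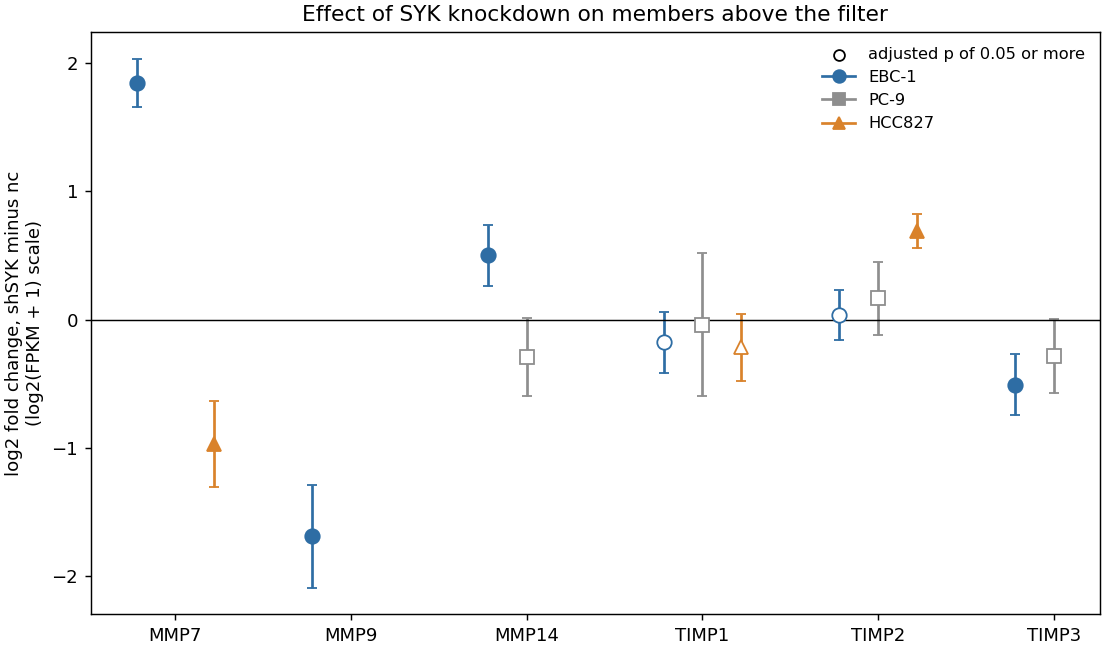
Log2 fold change of shSYK against nc on the log2(FPKM + 1) scale for members with a mean of at least 1 FPKM in that line, with 95% confidence intervals (bars), EBC-1 as circles, PC-9 as squares and HCC827 as triangles, filled where the adjusted p was under 0.05. MMP7 lies at 1.85 in EBC-1 and -0.97 in HCC827, MMP9 at -1.69 in EBC-1, TIMP2 at 0.69 in HCC827, and all PC-9 points are open.

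With all library sums set equal, the 4 EBC-1 calls remained called at log2 fold changes of 1.96 for MMP7, 0.63 for MMP14, -1.61 for MMP9 and -0.42 for TIMP3. In HCC827 the values were then -0.93 for MMP7 and 0.75 for TIMP2. The levels are from bulk RNA, in which a change in each cell and a change in the share of cells that express a gene cannot be told apart.

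The question whether an effect differed between lines was tested in 1 fit of all 18 libraries over 14636 genes. MMP7 was called in each pair. It was under the filter in PC-9, so both PC-9 pairs were tested through the level of the other line. Without a filter its PC-9 effect was 0.34 and not called (adjusted p = 0.457). Its effect was higher in EBC-1 than in HCC827 by 2.82 (SE 0.19, adjusted p = 1.28e-07), higher in EBC-1 than in PC-9 by 1.51 (adjusted p = 6.44e-05) and higher in PC-9 than in HCC827 by 1.31 (adjusted p = 0.000369). The call between EBC-1 and PC-9 depended on the scale. In PC-9, with 3 to 18 reads per library, the mean was 3.00 times higher in shSYK against 4.38 times in EBC-1, and the difference was 0.85 with limma-voom on reads (adjusted p = 0.277) and missed the threshold with a pseudocount of 0.1 (adjusted p = 0.0776).

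The effect on MMP9 in EBC-1 differed from that in PC-9 by -1.73 (SE 0.24, adjusted p = 0.000141) and from that in HCC827 by -1.85 (adjusted p = 5.2e-05), where both other lines were near the floor. The effect on MMP14 was higher in EBC-1 than in PC-9 by 0.79 (SE 0.16, adjusted p = 0.00252; 0.0593 with a pseudocount of 0.1), and its difference from HCC827 was 0.41 (adjusted p = 0.0754). The latter was called with equal library sums (0.54, adjusted p = 0.00393), after quantile normalization (0.63, adjusted p = 0.00356) and with a replicate block (adjusted p = 0.0495), and was 0.051 with limma-voom (adjusted p = 0.959), HCC827 having 3 to 15 reads. TIMP2 differed by -0.65 between EBC-1 and HCC827 (SE 0.12, adjusted p = 0.00159) and by -0.53 between PC-9 and HCC827 (adjusted p = 0.0164), higher in HCC827 in both pairs. The TIMP3 difference between EBC-1 and HCC827, -0.51 (adjusted p = 0.00729), is the EBC-1 effect alone, as TIMP3 was at 0 in HCC827. It was not called with limma-voom (adjusted p = 0.56). TIMP1 gave no called difference, with values between -0.14 and 0.18. Over all genes, 18.3% differed between EBC-1 and PC-9, 20.6% between EBC-1 and HCC827 and 7.63% between PC-9 and HCC827.

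The balance of protease to inhibitor transcripts was taken as the summed FPKM of the 7 MMPs over that of the 3 TIMPs in each library, a value that does not depend on how a library is scaled. In EBC-1 the ratio was 1.84, 1.64 and 1.84 in nc and 3.03, 2.44 and 2.84 in shSYK. No shSYK library overlapped nc, and the mean went from 1.77 ± 0.116 to 2.77 ± 0.298 (SD, n = 3). MMP14 made up 90.4% of the MMP sum in nc and 87.7% in shSYK, while the share of MMP7 went from 3.77% to 11.3%. In PC-9 it was 0.0435, 0.0415 and 0.0412 in nc and 0.0400, 0.0411 and 0.0405 in shSYK. These groups did not overlap either, though the means were close (0.0421 ± 0.00126 and 0.0405 ± 0.000555). TIMP3 made up 77.0% and 72.8% of the PC-9 inhibitor sum. In HCC827 it was 0.0876, 0.0854 and 0.0823 in nc and 0.0486, 0.0518 and 0.0620 in shSYK. The shSYK libraries were again apart from nc, on the lower side, with means of 0.0851 ± 0.00265 and 0.0541 ± 0.00699. MMP7 gave 83.2% of the HCC827 protease sum in nc and 51.6% in shSYK. As a sum of transcripts the ratio is a description and was not tested.

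**Figure D4:**
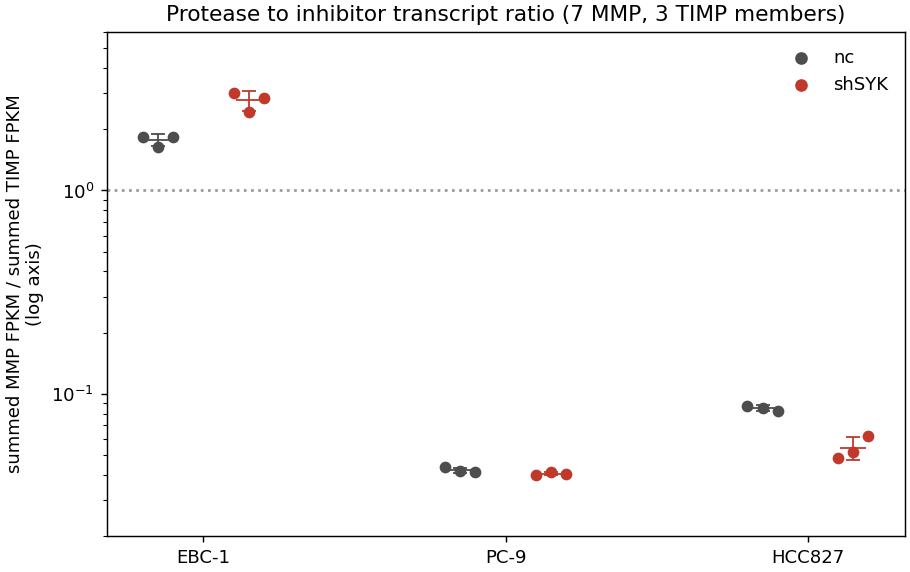
Ratio of summed MMP to summed TIMP FPKM (log axis) in each library, with group means and SD (n = 3), nc in grey and shSYK in red, and a dotted line at 1. EBC-1 lies above 1 and is higher in shSYK (2.77 against 1.77), PC-9 stays near 0.04, and HCC827 is lower in shSYK (0.0541 against 0.0851).

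The ratio rests on which genes are summed. With all 23 MMP and 4 TIMP genes of the tables it was 2.40 in EBC-1 nc and 3.23 in shSYK, 0.273 and 0.353 in PC-9, and 0.954 and 0.805 in HCC827. The direction turned in PC-9. MMP15 (a second membrane-type protease) had 32.8 to 56.8 FPKM in PC-9 and passed the test in no line (adjusted p = 0.0795 for EBC-1, 0.636 for PC-9 and 0.0881 for HCC827). MMP24 (another membrane-type protease) had 40.7 to 50.9 FPKM in HCC827 (adjusted p = 0.233) and under 1 FPKM in the other lines. MMP15 and MMP24 were picked after their values were seen.

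Around the members, 55 genes of the protease pathway were listed: other MMPs, other inhibitors, activators and docking proteins, ADAM proteases, and transcription factors known to act at MMP promoters. Of 30 tested in EBC-1, 7 rose and 8 fell, of 31 in PC-9, 2 rose and 1 fell, and of 30 in HCC827, 7 rose and 8 fell. Over all genes tested, 44.7%, 2.09% and 38% were called in these lines, so nothing particular to the list is read from the counts. In the same order of lines their median log2 fold changes were -0.17, -0.076 and -0.11, against 0.00904, 0.00876 and -0.00535 over all genes tested. Of 16 other MMPs, 2 were tested in each line, and MMP17 in EBC-1 was the single one called (12.1, 11.3 and 12.1 FPKM in nc against 6.81, 6.79 and 4.24 in shSYK, adjusted p = 0.00313). Among the 4 other inhibitors, TFPI2 in EBC-1 was the single one called (23.9, 24.6 and 23.3 FPKM in nc against 39.9, 40.5 and 45.8 in shSYK, adjusted p = 0.00034). Of the ADAM proteases, 2 of 5 tested rose in EBC-1 (ADAM9 and ADAM10), 0 of 5 were called in PC-9, and of 4 tested in HCC827 ADAM10 and ADAM17 rose and ADAM15 fell, beside the same shares of all genes.

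Of the activators, inducers and docking proteins, 3 rose and 4 fell of 8 tested in EBC-1. In PC-9, 1 rose and 1 fell of 9, and in HCC827, 2 rose and 4 fell of 8. Over all genes tested, 44.7%, 2.09% and 38% were called in these lines. Among them, CD44, the hyaluronan receptor to which MMP7 and MMP9 can be held at the cell surface, was higher in shSYK of all 3 lines. It rose from 8.06 ± 0.198 to 22.5 ± 3.62 FPKM in EBC-1 (1.37, SE 0.11, adjusted p = 0.000182), from 82.4 ± 0.660 to 124 ± 6.11 in PC-9 (0.59, adjusted p = 0.0364) and from 21.0 ± 0.775 to 26.3 ± 1.45 in HCC827 (0.31, adjusted p = 0.00669). The groups were apart in each line, and the PC-9 call was lost in 7 of 15 alternatives, with an adjusted p up to 0.218. LCN2 (lipocalin 2, which forms a complex with MMP9 and protects it from degradation) fell in EBC-1 from 1112 ± 94.9 to 613 ± 37.9 FPKM (-0.86, adjusted p = 0.000379, and -0.41 after quantile normalization) and in HCC827 from 1562 ± 469 to 201 ± 95.6 (-3.04, SE 0.38, adjusted p = 0.00129). The PC-9 level was 650 ± 143 in nc and 348 ± 18 in shSYK (-0.88, adjusted p = 0.0523), and was called in 7 of 15 alternatives, with an adjusted p down to 0.00218.

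Of the 15 transcription factors, 1 rose and 3 fell of 14 tested in EBC-1, 1 rose of 13 in PC-9, and 3 rose and 3 fell of 14 in HCC827, where 44.7%, 2.09% and 38% of all tested genes were called. FOSL1, which encodes FRA1, was 546 ± 87.5 FPKM in EBC-1 nc and 496 ± 15.6 in shSYK (-0.13, adjusted p = 0.406; 0.00395 with equal library sums and 0.153 after quantile normalization, and -0.266 without nc replicate 2, where it was called with an adjusted p of 0.00788, so without a stable sign or call), and 37.2 ± 10.3 and 44.2 ± 5.43 in PC-9 (0.27, adjusted p = 0.592). In HCC827 it rose from 178 ± 13.5 to 236 ± 17.5 (0.41, SE 0.079, adjusted p = 0.00666), a call lost in the fit of all 18 libraries (0.0797). JUNB fell in EBC-1 (-0.72, adjusted p = 0.000413) and HCC827 (-1.04, adjusted p = 0.000255) and was at -0.43 in PC-9 (adjusted p = 0.403). FOS fell in HCC827 from 2.90 ± 0.887 to 0.662 ± 0.123 FPKM (-1.21, adjusted p = 0.00227). ETS1 was called in all 3 lines with differing signs, -0.19 in EBC-1 (adjusted p = 0.0405), 0.60 in PC-9 (0.0415) and 0.94 in HCC827 (0.00171). The EBC-1 call of ETS1 was lost in 12 of 15 alternatives and the PC-9 call in 7 of 15, while the HCC827 call held in all 15.

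Genes whose pattern over the 18 libraries was most like that of a member were sought for TIMP1 and TIMP2, the members tested in every line, among 10030 genes. Values were log2(FPKM + 1) minus the mean of the nc libraries of the line. For TIMP2 they were LGALS1 (Pearson r = 0.952), PTX3 (0.942) and ZFYVE1 (0.941). The log2 fold changes of LGALS1 for EBC-1, PC-9 and HCC827 were -0.029, 0.58 and 1.19, beside 0.036, 0.17 and 0.69 of TIMP2. For TIMP1 they were ERI3 (0.934), CLPP (0.919) and SMARCD2 (0.914). The points share library scale and cell line, and the r values are descriptions picked as the highest of many.

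Markers of other cell types were checked beside these values. Of 5 leukocyte and 3 endothelial markers, none had a mean of 1 FPKM in EBC-1, while CSF1R did in HCC827, where it rose, and PECAM1 and CDH5 did in PC-9, where PECAM1 fell. The summed endothelial level in PC-9 was 15.0 to 17.0 FPKM in nc and 6.62 to 7.91 in shSYK. The summed epithelial level in EBC-1 was 1930 to 2209 FPKM in nc and 1413 to 1518 in shSYK. There 4 of 6 markers were called lower, where 21.6% of all tested genes were. EPCAM (0.23) and KRT8 (0.044) lay on the higher side and were not called. The summed epithelial level in HCC827 was 4371 to 4818 in nc and 3743 to 4424 in shSYK. There 2 of 6 markers (CDH1 and KRT19) were called lower, where 20.7% of all tested genes were. The summed leukocyte level in HCC827 was 2.20 to 3.13 in nc and 3.17 to 3.95 in shSYK. Their part in the member values was not tested. Of the other genes that overlap a member, WTAPP1, which lies across MMP1 and MMP10, had at most 2 reads, MMP2-AS1, AC007336.2 and AC007336.3 had 0 beside MMP2, and CEP295NL, AC100788.1, AC022966.2 and AC100788.2 had at most 9 beside 763 to 2114 on TIMP2.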

How the data were processed

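RNA of 18 libraries (6 groups of 3) was extracted with TRIzol and sequenced by Novogene on an Illumina HiSeq system. The submitters' processing notes name CASAVA and HISAT2, with no versions, and the supplement names hg38. The counting program and the annotation release are not given in the sources used here. The FPKM values of 58302 genes, 1 table per cell line, were deposited by the authors, who scaled reads by gene length and a denominator per library (0.883 to 1.07 times the reads on genes). All values above 0 gave whole reads within 0.01 (100%), so reads were recovered for depths and as an alternative. They cover counting error only. No library was a copy of another in its group (chi-square per degree of freedom 2.11 to 38.66), and 0 value columns were left out. Libraries of different groups were not compared in this way.

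Within each line, shSYK was compared with nc by limma 3.58.1 (R 4.3.3) with a variance trend, two-sided, on log2(FPKM + 1), over genes with a mean of at least 1 FPKM. A gene was called if its p, adjusted by Benjamini-Hochberg over all genes tested, was under 0.05. Such fold changes understate the change of low genes. Differences between lines came from 1 fit of all 18 libraries. The scripts were tested on simulated data. Results were recomputed unfiltered, with a filter at 5 FPKM or a pseudocount of 0.1, with equal library sums (TPM), quantile normalization, no variance trend, limma-voom, a replicate block and without each library in turn. For low members, limma-voom without a filter was added after the data had been seen, as was the GC box word.

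The members and lists were chosen with earlier results of these data known. Named genes were every member, SYK, FOSL1, genes overlapping a member, listed pathway genes called in all 3 lines or with an absolute log2 fold change of at least 1 where called, and the 3 genes most like each member tested in all lines. MMP15, MMP17, MMP24, TFPI2 and the ADAM genes, like the listed cell type markers, are named as members of small counts. Promoters came from RefSeq (GRCh38.p14), and their start sites lay 0 to 123 bases from those of the tables. Figures were drawn with matplotlib 3.10.9 in Python 3.11.15.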

Additional observations from a re-analysis of the deposited data

Results flagged for a closer look

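The effect of SYK knockdown on MMP7, MMP9, MMP14 and TIMP2 differed between lines by the test of the difference itself. For MMP7 the differences were 1.51 (EBC-1 minus PC-9, adjusted p = 6.44e-05), 2.82 (EBC-1 minus HCC827, adjusted p = 1.28e-07) and 1.31 (PC-9 minus HCC827, adjusted p = 0.000369) on the log2(FPKM + 1) scale. The EBC-1 minus PC-9 call depended on the scale, with MMP7 under the filter in PC-9. It was lost with limma-voom (0.848, adjusted p = 0.277) and with a pseudocount of 0.1 (adjusted p = 0.0776). The PC-9 minus HCC827 value sets an uncalled PC-9 effect (0.34 by limma without a filter, adjusted p = 0.457) against the HCC827 fall of -0.97. That call held in 20 of 20 alternatives. For MMP9 the differences were -1.73 (EBC-1 minus PC-9, adjusted p = 0.000141) and -1.85 (EBC-1 minus HCC827, adjusted p = 5.2e-05). MMP9 was near the floor in PC-9 and HCC827 and passed the filter through EBC-1. Both values are therefore close to the EBC-1 effect alone (-1.69), and what they add to it cannot be told at this depth. MMP14 differed by 0.795 between EBC-1 and PC-9 (adjusted p = 0.00252), a call lost with a pseudocount of 0.1 (adjusted p = 0.0593). For TIMP2 the differences were -0.655 (EBC-1 minus HCC827, adjusted p = 0.00159) and -0.526 (PC-9 minus HCC827, adjusted p = 0.0164). The TIMP3 value for EBC-1 minus HCC827, -0.508 (adjusted p = 0.00729), passed the same threshold but is the EBC-1 effect alone, because all HCC827 libraries were at 0, and no difference between these lines is read from it.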

How the results depend on the processing

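The calls of MMP7, MMP9, MMP14 and TIMP3 in EBC-1 and of MMP7 and TIMP2 in HCC827 kept their direction and side of the threshold in each alternative in which the gene was tested (14 or 15 each). A filter at 5 FPKM left 2 calls in EBC-1 and 1 in HCC827, since fewer members were tested. Over all genes, 3579 of 6847 and 3320 of 6822 were then called. TIMP3 was the 1 call gained in PC-9 with 1 fit of all 18 libraries or quantile normalization, where 1465 of 14636 and 505 of 12089 genes were called. Called differences went to 1 between EBC-1 and PC-9 with a pseudocount of 0.1, where 2281 of 14636 genes differed. Between PC-9 and HCC827 the called differences went to 4 with no filter and with equal library sums, where 1081 of 35463 and 1224 of 14636 genes differed. Without a filter the added calls were MMP13 and MMP2 (adjusted p = 0.0418), which the filter had kept out of the test. MMP2 had at most 10 reads in any library, and MMP13 at most 1 in PC-9. With equal sums the added calls were MMP14 and TIMP3. TIMP3 was at 0 in all HCC827 libraries, so its value (-0.313) is the PC-9 effect alone, and no difference between these lines is read from it. MMP14 was under the filter in HCC827. The cause of the changes with a pseudocount of 0.1 and with equal sums was not tested. With all MMP and TIMP genes the ratios were 2.396 and 3.227 in EBC-1, 0.2733 and 0.3526 in PC-9 and 0.9537 and 0.8047 in HCC827. Signs turned only for values that did not pass the test as reported. With equal library sums TIMP1 (0.0124) and TIMP2 (0.0253) turned between EBC-1 and PC-9 and FOSL1 in EBC-1 (0.00395), with quantile normalization FOSL1 in EBC-1 (0.153) and TIMP1 between EBC-1 and HCC827 (-0.00694), and with limma-voom MMP9 between PC-9 and HCC827 (0.183).

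Leaving out 1 library at a time turned the sign of TIMP1 in PC-9 (-0.283 to 0.234), of TIMP2 in EBC-1 (-0.0335 to 0.0822), of TIMP1 between EBC-1 and PC-9 (-0.413 to 0.105), EBC-1 and HCC827 (-0.0677 to 0.168) and PC-9 and HCC827 (-0.0675 to 0.45), and of MMP9 between PC-9 and HCC827 (-0.249 to 0.0542).

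Same-numbered libraries correlated between -0.219 and 0.325 in their deviations from group means, so the numbers were not taken to pair samples. Differently numbered nc and shSYK libraries of a line correlated between -0.36 and 0.383. With a replicate block, the called members stayed at 4, 0 and 2 within EBC-1, PC-9 and HCC827. Over all genes, 4326 of 12430, 172 of 12089 and 4111 of 11999 were then called. The called differences were 3, 5 and 1 for EBC-1 against PC-9, EBC-1 against HCC827 and PC-9 against HCC827, where TIMP2 was lost (adjusted p = 0.0603). In the same order, 2122, 2450 and 740 of 14636 genes differed. The counts for EBC-1 against HCC827 include TIMP3, which had no reads in HCC827. Genes under about 3 reads are out of reach at this depth.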
